A study of Rattus norvegicus with 30 samples.

Results

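The livers of 10 female pups were compared: 5 pups received DE-71, a commercial flame retardant made of polybrominated diphenyl ethers, and 5 received the corn oil vehicle. They were chosen by the labels alone, as the female pups of postnatal day 22 at 50 mg/kg and at 0 mg/kg, and make up 10 of the 30 livers measured. All animals were Wistar Han rats. Dams were gavaged from gestation to postnatal day 21, the pups were also dosed themselves until that day, and each pup came from a different dam. One label field calls the controls untreated, while the growth protocol gives them 0 mg/kg in corn oil. Male pups of the same age and dose (5 treated, 5 control) and adult males of week 13 (5 treated, 5 control) are given here only beside the female values. The dose is that given by gavage, and no tissue concentration of the mixture was used here. In the female pups dose and array batch coincide. The 5 control arrays carry the name prefix of the first array batch and the 5 DE-71 arrays that of the second, and the labels do not say what the prefix records. A difference between these groups therefore cannot be told apart from a difference between the batches. Both male pup groups lay in the first batch and both adult groups in the second.

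DE-71 congeners and the traces of dioxin-like compounds in such mixtures act on liver through receptors that sense foreign chemicals. The aryl hydrocarbon receptor (AhR) binds planar aromatic ligands and switches on cytochromes P450 of family 1. The constitutive androstane receptor (CAR, Nr1i3) and the pregnane X receptor (PXR, Nr1i2) induce P450s of families 2 and 3 with conjugating enzymes and efflux pumps, and NRF2 (Nfe2l2) drives antioxidant genes when its inhibitor Keap1 is modified.

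RNA was amplified in 2 cycles from the 3' end, hybridised to Affymetrix rat genome arrays and deposited as log2 RMA values. Medians of all arrays lay near 5.75, and the highest value on the scale was 15.46. Of 5 control measures, 3 gave an unadjusted p under 0.05 between the female groups and 0 passed after adjustment. The bacterial spikes added to the hybridisation read 11.69 ± 0.11 (SD, n = 5) on the DE-71 arrays and 11.35 ± 0.15 on the control arrays (two-sided exact permutation p = 0.0159, adjusted over 5 measures 0.0661, where 0.00794 is the smallest p possible). The 3' minus 5' signal of Gapdh, which grows as RNA breaks or amplification shortens, was 1.93 ± 0.30 against 1.26 ± 0.50 (exact p = 0.0397, adjusted 0.0661). That of Actb was 3.41 ± 0.31 against 2.71 ± 0.46 (exact p = 0.0317, adjusted 0.0661). Without control replicate 5 the differences grew to 0.40 for the spikes, 0.88 for Gapdh and 0.89 for Actb (exact adjusted p = 0.0132 for each), and without DE-71 replicate 3 that of the spikes was 0.38 (exact adjusted p = 0.0397). Spikes added before labelling read 8.35 ± 0.41 on the DE-71 arrays against 7.96 ± 0.17 (exact p = 0.0952, adjusted 0.119), and without DE-71 replicate 3 their difference was 0.52 (exact adjusted p = 0.0397). Over the 30 arrays the hybridisation spikes ran from 11.22 to 12.17 in the first batch and from 11.48 to 11.85 in the second. Xist, the RNA that coats the inactive X chromosome, ran from 10.75 to 12.24 in the 10 pups labelled female, and its means were 3.27 ± 0.11 and 3.23 ± 0.11 in the male control and DE-71 pups. The hepatocyte genes Alb and Ttr read 15.43 to 15.46 and 14.76 to 14.86 in these 10 livers, at the top of the scale, where an array can compress differences. In whole liver, fewer cells of a type and less RNA per cell cannot be told apart.

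**Figure D1:**
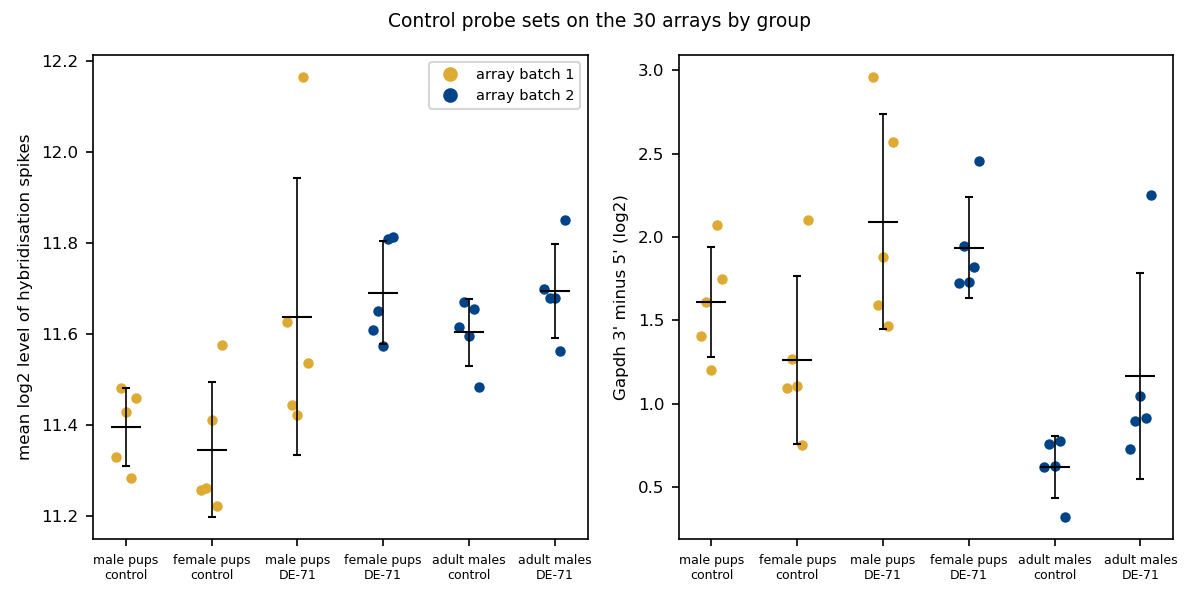
Control probe sets on all 30 arrays: the mean log2 level of hybridisation spikes (left panel) and the 3' minus 5' log2 difference of Gapdh (right panel), 1 point an array, with group mean and SD, coloured by array batch. Female control pups (batch 1) average 11.35 for the spikes and female DE-71 pups (batch 2) 11.69; the Gapdh differences average 1.26 and 1.93.

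Of 31042 probe sets, 1315 (4.24%) differed between the female groups at a false discovery rate (FDR) of 0.01 (limma, Benjamini-Hochberg), 792 higher with DE-71 (2.55%) and 523 lower (1.68%). Read as 1 probe set a gene, 872 of 14217 genes (6.13%) were called, 562 higher (3.95%) and 310 lower (2.18%), and these percentages are the background for each gene list that follows. Of the 14217 genes 7741 had a change above 0, the background for counts of changes above or below 0. Genes on the same arrays are not independent, so such counts are a description. At least 2-fold changes were held by 95 higher genes (0.668%) and 55 lower genes (0.387%). All 5 DE-71 arrays lay on one side of the 5 controls for 769 of the 872 called genes, and for 1555 (10.9%) of all genes. The 20 largest increases and 20 largest decreases were taken only from called genes whose groups do not overlap. For those genes the lack of overlap was a condition of the choice and adds no evidence. With each array's spike level in the model the count fell to 506 probe sets, of which 488 were among the 1315. The spike means were unlike in the 2 female groups (11.69 with DE-71 and 11.35 in controls), so the covariate partly coincides with dose. A call can therefore end in that fit through a wider standard error as well as through a smaller change. Without control replicate 4 and DE-71 replicate 5, the 2 arrays least like their own groups, it was 725. A gene is called where its adjusted p (limma) is under 0.01, and its call is said to end where an alternative fit brings that p to 0.01 or more. A log2 change is given ± its standard error from limma, whose spread is pooled over all 6 groups, and a mean level ± the SD between livers. The fits named are the spike covariate, the 3' minus 5' Gapdh signal as covariate, the 10 female arrays alone, the set without the 2 least-like arrays and, for some lists, a filter that drops genes of low level.

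**Figure D2:**
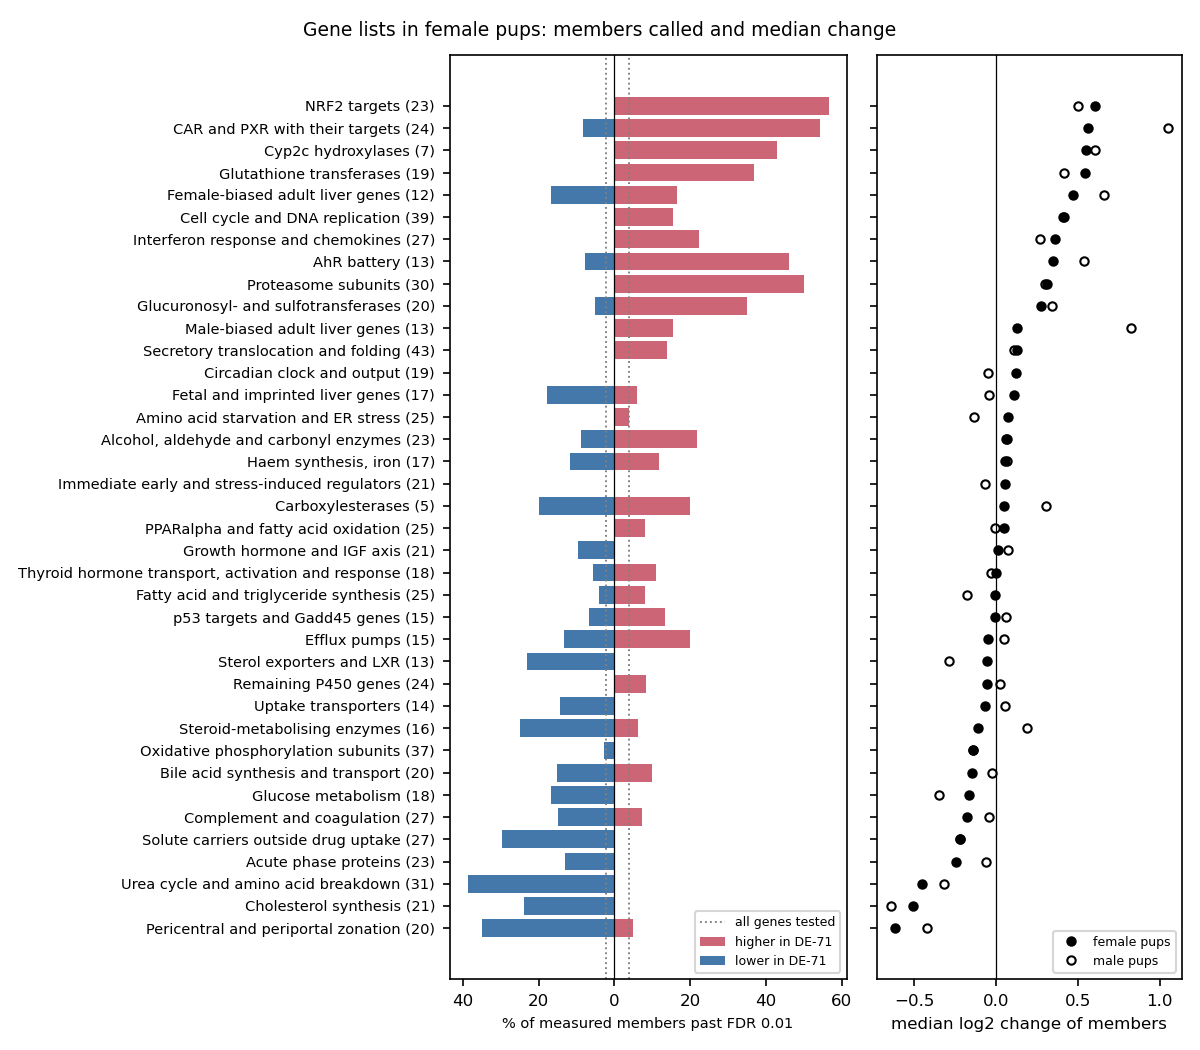
Gene lists in female pups, ordered by the median log2 change of their measured members (number in brackets). Left, the percent of measured members past FDR 0.01, higher in DE-71 to the right and lower to the left, with dotted lines at 3.95% and 2.18% for all 14217 genes; right, the median log2 change in female pups (filled) and male pups (open). The NRF2, CAR and PXR lists stand at the upper end and the zonation, cholesterol and amino acid lists at the lower end.

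The AhR battery held the largest increase among the called genes, that of Cyp1a1. Of 16 listed genes 13 were measured, and 6 were higher and 1 lower, with a median log2 change of 0.34 against 0.016 over all genes. That median was 0.73 without DE-71 replicate 5, 0.64 without the 2 least-like arrays and 0.80 with a filter on low values (11 genes), and 4 members were higher without DE-71 replicate 5 or with the spike covariate. Cyp1a1, the P450 that is the classic target of the receptor, read 10.83, 8.47, 8.44, 8.58 and 8.85 in control replicates 1 to 5 and 14.33, 14.33, 14.54, 14.09 and 14.41 in DE-71 replicates 1 to 5. Every treated pup stood above every control, and control replicate 1 stood over 1.9 log2 units above the other controls. The change was 39.6-fold (log2 change 5.31 ± 0.44, adjusted p = 1.51e-09). Cyp1b1, a P450 that is nearly silent in unexposed liver, read 5.36, 5.30, 5.28, 5.43 and 5.17 in the controls and 9.05, 9.03, 10.00, 6.97 and 8.75 with DE-71. The controls lay within 0.3 log2 units of each other, while the treated pups spread over 3 units with replicate 4 lowest and replicate 3 highest (log2 change 3.45 ± 0.60, adjusted p = 0.00025). Cyp1a2, expressed in normal liver, went from 13.66 ± 0.10 to 14.75 ± 0.10 (SD, n = 5), where the upper value is near the top of the scale (log2 change 1.09 ± 0.18, adjusted p = 0.000112).

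The promoter of Cyp1b1 is shown because this gene rose from a flat, low control level and its upstream window holds the letters TNGCGTG, the core that AhR and its partner ARNT recognise. The sequence is the 250 bases before the start in RefSeq's GRCr8 assembly of the rat, at chr6:21094315-21094564, plus strand, 5' to 3', and capitals mark the match, 22 to 16 bases before the start.

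Cyp1b1: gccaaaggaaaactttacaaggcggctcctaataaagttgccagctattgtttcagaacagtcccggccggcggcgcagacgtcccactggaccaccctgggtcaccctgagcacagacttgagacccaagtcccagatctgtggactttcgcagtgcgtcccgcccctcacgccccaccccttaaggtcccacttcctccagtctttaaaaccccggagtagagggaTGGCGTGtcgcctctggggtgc

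TNGCGTG on either strand occurs in 1370 of 33469 such windows of rat genes (4.09%). Of the 16 listed AhR genes, 14 had a window and 3 held the letters: Ahrr, Cyp1b1 and Gsta2. A match is a description of the letters only.

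Aldh3a1, an aldehyde dehydrogenase that AhR ligands switch on in rat liver, was the most uneven of these genes. Controls read 5.29, 5.06, 5.32, 5.37 and 4.78, and the treated pups read 6.50, 6.85, 8.72, 5.51 and 9.56. Replicates 3 and 5 were high and replicate 4 lay barely above the controls (log2 change 2.26 ± 0.52, adjusted p = 0.0045). That call ended without any 1 of control replicates 2 and 5 and DE-71 replicates 3 and 5 (adjusted p = 0.0114 to 0.023). It also ended with the spike covariate, in the fit of the female arrays alone, without the 2 least-like arrays and with a variance trend and robust fit (adjusted p = 0.0102 to 0.0433). The quinone reductase Nqo1 was 1.18 ± 0.26 higher on the log2 scale (adjusted p = 0.00315), and its call ended without any 1 of control replicate 4 and DE-71 replicates 1 and 5 (adjusted p = 0.0122 to 0.0135). The same was so with the spike covariate, with the Gapdh covariate and without the 2 least-like arrays (adjusted p = 0.0152 to 0.0432). Fmo1, a flavin monooxygenase placed in the list as a gene that AhR ligands alter, fell 3.58-fold (log2 change -1.84 ± 0.25, adjusted p = 1.27e-05), with every treated pup below every control. The receptor's repressor Ahrr, its target Tiparp and Ahr itself did not pass, at log2 0.25, 0.20 and 0.30. For Ahr, DE-71 replicate 5 read 5.56 and the other 4 treated pups 7.57 to 7.82. Its change was 0.73 without that replicate, ran from 0.16 to 0.73 over the alternatives and passed in none of them.

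Targets of CAR and PXR rose as well, several of them at least 2-fold. Of 31 genes 24 were measured, 13 higher and 2 lower, with a median log2 change of 0.56. Cyp2c7, a retinoid and steroid hydroxylase, read 10.73, 11.45, 10.38, 12.75 and 10.45 in the controls and 14.41, 14.35, 14.28, 14.38 and 14.34 with DE-71. Control replicate 4 was the highest control, the treated pups were all within 0.2 units near the top of the scale, and the groups did not overlap (log2 change 3.20 ± 0.29, adjusted p = 1.09e-08). Ces2c, a carboxylesterase that hydrolyses esters and amides, read 10.35, 10.73, 9.84, 9.30 and 9.80 against 12.18, 12.36, 12.01, 12.48 and 12.08, again without overlap (log2 change 2.22 ± 0.21, adjusted p = 2.28e-08). Further increases were those of the P450 reductase Por (2.48-fold), the retinal dehydrogenase Aldh1a1 (2.87-fold), the stress gene Gadd45b (3.04-fold), the epoxide hydrolase Ephx1 (2.25-fold) and the P450 Cyp3a23-3a1 (2.03-fold). Another probe set of Por gave 0.40 on the log2 scale and did not pass. Cyp3a23-3a1 read 13.89, 13.73, 13.57, 13.31 and 13.63 in controls and 14.63, 14.65, 14.64, 14.66 and 14.64 in treated pups, and Cyp2c6v1 rose by 0.55 ± 0.062. Both started above 13 on the log2 scale, near the top of the scale. Cyp2a3 rose by 2.77 ± 0.50 although DE-71 replicate 4 lay below the highest control, with 8.86, 7.16, 8.32, 6.24 and 6.37 in controls and 10.65, 11.28, 8.91, 8.61 and 11.37 in treated pups. Its call ended in the fit of the female arrays alone (adjusted p = 0.0159) and without the 2 least-like arrays (adjusted p = 0.0115).

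The receptors themselves went the other way. PXR (Nr1i2) read 9.16, 9.23, 9.20, 8.90 and 9.08 in controls and 8.68, 8.88, 8.71, 8.58 and 8.44 in treated pups, with no overlap (log2 change -0.46 ± 0.085, adjusted p = 0.000619), and its call ended with the spike covariate (adjusted p = 0.0237). CAR (Nr1i3) was at -0.76 ± 0.19 (adjusted p = 0.00932), a call that ended without any 1 of control replicates 2, 3 and 5 and DE-71 replicates 1, 2, 3, 4 and 5 (adjusted p = 0.012 to 0.0398). It also ended with the spike covariate, with the Gapdh covariate, in the fit of the female arrays alone, without the 2 least-like arrays, with a variance trend and robust fit, with the replicate block and after a renewed quantile normalization (adjusted p = 0.0105 to 0.0734). Their partner Rxra stood at -0.23 and did not pass. Cyp2b1 and Cyp2b2, the best known CAR targets of the rat, were not analysed here because no probe set names either alone. Of the other Cyp2c genes, Cyp2c12, Cyp2c13, Cyp2c22 and Cyp2c23 stood at log2 0.49, 0.72, -0.18 and -0.06 without passing.

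Members of every class of conjugating enzyme listed rose. Among glutathione transferases, which attach glutathione to reactive compounds, 7 of 19 measured genes were higher and 0 lower (median 0.55). With the spike covariate 4 were higher and the median was 0.22, and the median was also 0.31 without control replicate 3, 0.25 without control replicate 4, 0.34 without DE-71 replicate 3 and 0.24 without the 2 least-like arrays. Gsta4, the form that clears lipid aldehydes, read 11.69, 11.72, 11.61, 11.30 and 11.65 in controls and 12.71, 12.74, 13.01, 12.61 and 12.81 with DE-71, with narrow spread on both sides and no overlap (log2 change 1.18 ± 0.09, adjusted p = 4.02e-10). Gstt3 rose by 0.79 ± 0.12, Gstm1 by 0.78 ± 0.12 and the microsomal Mgst2 by 0.55 ± 0.088. Members of this family share sequence, so the signal of 1 form in another's probe set cannot be told apart from its own. Of 20 measured glucuronosyl- and sulfotransferases and their suppliers, 7 were higher and 1 lower (median 0.27). Oestrogen sulfotransferase Sult1e1, which inactivates oestrogens, read 5.69, 4.94, 5.12, 5.46 and 5.65 in controls and 9.18, 8.32, 7.74, 8.74 and 9.61 with DE-71. Every control lay below or near the array median of 5.75, so the 10.2-fold change (log2 change 3.34 ± 0.35, adjusted p = 1.98e-07) starts from a level where RMA resolves little. Sult1b1, which sulfates thyroid hormones and phenols, rose 3.83-fold (log2 change 1.94 ± 0.17, adjusted p = 7.94e-09). Ugt2b1 rose by 1.07 ± 0.12, Ugt2b10 by 0.63 ± 0.095 and Ugdh, which makes UDP-glucuronic acid, by 0.58 ± 0.10. Ugdh's call ended in the fit of the female arrays alone (adjusted p = 0.0104). The phenol sulfotransferase Sult1a1 was the one that fell, from 13.29 ± 0.16 to 12.41 ± 0.20 (log2 change -0.88 ± 0.11, adjusted p = 4.42e-06). Sult2a2 read 7.21, 7.78, 7.66, 8.47 and 7.62 in controls and 6.93, 11.15, 11.32, 11.65 and 11.44 with DE-71, so that 4 treated pups were high and replicate 1 was at the control level, and it did not pass (adjusted p = 0.0296).

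NRF2 targets had a median of 0.60, with 13 of 23 measured genes higher and 0 lower. Me1, malic enzyme, which makes NADPH and is also a thyroid hormone target, read 9.35, 9.46, 9.48, 8.77 and 9.68 in controls and 10.70, 11.31, 11.03, 11.13 and 10.97 with DE-71. All treated pups exceeded all controls, and control replicate 4 was lowest (log2 change 1.68 ± 0.20, adjusted p = 1.58e-06). The NRF2 gene itself (Nfe2l2) rose by 0.80 ± 0.11 without overlap between the groups, and is counted in the AhR battery rather than in this list. The glutathione synthesis subunits Gclc and Gclm did not pass (log2 0.47 and 0.56), nor did haem oxygenase Hmox1 (-0.12). The count of higher members was 8 without control replicate 3, DE-71 replicate 3 or DE-71 replicate 5, 7 without control replicate 4 or DE-71 replicate 1, 8 with the Gapdh covariate, 7 without the 2 least-like arrays and 6 with the spike covariate. Of the 13 calls, 7 held without any single female array. Those 7 were Me1, Gsta4, Gstm1, Ephx1, Abcc2, Abcc3 and Cbr1, and that of carbonyl reductase Cbr1 (log2 0.60 ± 0.12) ended with the spike covariate (adjusted p = 0.015). The gene lists share members, so their counts are not separate. Ephx1, Abcc2 and Abcc3 are also counted in the CAR and PXR list, and Gsta4 and Gstm1 among the glutathione transferases.

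The promoter of Me1 is printed because this gene rose at least 2-fold with a call that held without any single female array, and its window holds TGACNNNGC, the core of the antioxidant response element. The window lies at chr8:96540245-96540494 of GRCr8 (RefSeq), minus strand, printed 5' to 3', with the match at 167 to 159 bases before the start in capitals.

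Me1: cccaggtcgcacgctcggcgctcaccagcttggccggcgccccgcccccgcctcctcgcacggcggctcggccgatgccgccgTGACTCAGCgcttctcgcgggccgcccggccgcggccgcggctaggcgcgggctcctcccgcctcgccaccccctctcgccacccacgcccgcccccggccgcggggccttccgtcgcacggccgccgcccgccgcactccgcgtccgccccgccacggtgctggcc

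TGACNNNGC on either strand occurs in 3373 of the 33469 windows (10.1%). Of the 27 listed NRF2 genes 21 had a window and 3 held these letters: Gclm, Prdx1 and Me1.

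The conjugate export pumps Abcc3 and Abcc2 rose. Abcc3, on the blood side of the hepatocyte, read 8.41, 9.09, 8.36, 8.01 and 9.17 in controls and 10.22, 10.18, 10.71, 10.02 and 10.58 with DE-71 (log2 change 1.73 ± 0.25, adjusted p = 2.28e-05), and Abcc2, on the bile side, rose by 1.21 ± 0.15. Neither gene's groups overlapped. Of 14 measured uptake carriers 0 rose and 2 fell. These were the organic anion carrier Slc22a7 (-0.56 ± 0.085) and the bile acid carrier Slc10a1 (-0.42 ± 0.071), whose call ended in the fit of the female arrays alone (adjusted p = 0.0141).

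The paired sterol pumps Abcg5 and Abcg8, which work as one dimer and send cholesterol and plant sterols into bile, fell together. Abcg5 read 9.64, 9.39, 9.34, 9.34 and 8.48 in controls and 7.34, 7.15, 7.34, 7.54 and 6.41 with DE-71. Abcg8 read 7.53, 6.66, 6.76, 7.10 and 6.50 in controls and 4.64, 4.87, 4.67, 4.94 and 4.28 with DE-71. Within each group replicate 5 was the lowest for both genes, and neither gene's groups overlapped. Abcg5 fell 4.24-fold (log2 change -2.08 ± 0.31, adjusted p = 4.13e-05) and Abcg8 4.69-fold (log2 change -2.23 ± 0.31, adjusted p = 1.33e-05), although the treated values of Abcg8 lay below the array median. The 2 genes are transcribed away from each other, and the interval between their starts is printed because it is upstream of both. It is chr6:15717731-15717935 of GRCr8 (RefSeq), 205 bases, plus strand, with Abcg5 to its right and Abcg8 to its left.

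Abcg5-Abcg8: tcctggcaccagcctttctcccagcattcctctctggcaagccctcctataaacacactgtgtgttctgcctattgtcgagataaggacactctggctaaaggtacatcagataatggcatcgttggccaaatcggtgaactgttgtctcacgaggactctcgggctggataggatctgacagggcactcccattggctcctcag

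Of 13 sterol exporters and genes that answer to the sterol receptor LXR, 0 rose and 3 fell. The one besides this pair was Scarb1, the HDL receptor (-0.40 ± 0.10), a call that ended without any 1 of control replicates 1, 2, 3, 4 and 5 and DE-71 replicates 1, 2, 3, 4 and 5 (adjusted p = 0.0144 to 0.0327). The call of Scarb1 also ended with the spike covariate, with the Gapdh covariate and without the 2 least-like arrays (adjusted p = 0.0302 to 0.0569), and another probe set gave -0.65 (adjusted p = 0.0157). Others of the list did not pass: Abca1 at -0.048, Abcg1 at -0.16, Srebf1 at -0.53 and the receptor gene Nr1h3 at 0.34 on the log2 scale.

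Enzymes of steroid hormones fell more often than they rose, 4 against 1 of 16 measured. Cyp17a1, the 17-hydroxylase and lyase that young rat liver expresses, read 11.69, 12.18, 12.31, 11.89 and 12.05 in controls and 10.09, 10.10, 9.36, 9.44 and 9.07 with DE-71. The groups were more than 1.5 log2 units apart at their nearest (log2 change -2.41 ± 0.28, adjusted p = 1.07e-06). Hsd17b6, which oxidises androgen metabolites, read 10.87, 10.63, 11.23, 11.44 and 10.59 in controls and 8.59, 9.46, 8.19, 8.63 and 8.30 with DE-71 (log2 change -2.32 ± 0.34, adjusted p = 2.68e-05), with DE-71 replicate 2 highest of the treated. Hsd17b13, a lipid droplet enzyme, fell by 0.62 on the log2 scale (adjusted p = 1.73e-05). Sult1e1 was the 1 that rose. Of the thyroid list 2 of 18 rose and 1 fell. Serpina7, thyroxine-binding globulin, which carries the hormone in blood, read 10.51, 10.43, 11.20, 12.09 and 9.89 in controls and 8.91, 8.65, 8.75, 9.41 and 7.64 with DE-71. Replicate 4 was the highest and replicate 5 the lowest in each group (log2 change -2.15 ± 0.39, adjusted p = 0.000429). Its call ended with the spike covariate (adjusted p = 0.0171) and without the 2 least-like arrays (adjusted p = 0.0104). The deiodinase Dio1 (0.075), the receptor Thrb (0.042) and the hormone-responsive Thrsp (0.13) did not pass.

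In bile acid synthesis the 12-hydroxylase Cyp8b1, which decides whether cholic acid is made, read 12.63, 11.28, 11.14, 11.67 and 12.51 in controls and 9.66, 10.18, 10.30, 9.11 and 9.64 with DE-71. It fell 4.2-fold with no overlap (log2 change -2.07 ± 0.31, adjusted p = 4.04e-05). The rate-limiting Cyp7a1 read 13.05, 11.22, 12.31, 12.75 and 12.34 against 10.76, 11.49, 11.82, 10.58 and 11.73, overlapped and did not pass (log2 -1.06, adjusted p = 0.216). The bile acid ligase Slc27a5 fell by 0.57 on the log2 scale (adjusted p = 9.36e-05). In all, 2 of 20 measured genes of that list rose and 3 fell.

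Cholesterol synthesis had a median of -0.51, with 0 higher and 5 lower of 21 measured, and 19 of the 21 changes were below 0. The list's mean level overlapped between the groups. It was 10.73 in control replicate 2 and 11.10 to 11.68 in the other controls. With DE-71 it was 10.18 in replicate 1 and 10.76 to 10.96 in the others. Ebp, a sterol isomerase, was at -0.69 ± 0.11 and Scap, which escorts the sterol regulator SREBP, at -0.73 ± 0.13. Both calls held under every alternative run, but another probe set of Scap gave -0.028 (adjusted p = 0.924) and was not called. Hsd17b7 (-1.36 ± 0.23) and Idi1 (-1.28 ± 0.26), enzymes of late and early steps, were also called, and both calls ended with the spike covariate (adjusted p = 0.0108 and 0.0436). For Idi1 this was also so with the Gapdh covariate (adjusted p = 0.0123) and without the 2 least-like arrays (adjusted p = 0.0161). Another probe set of Hsd17b7 was also negative and narrowly missed the threshold (adjusted p = 0.0120). The list's count of lower members was 2 with the spike covariate and 3 without those 2 arrays, 1 member was higher with the Gapdh covariate, and the median was -0.33 without DE-71 replicate 1. Lss, which closes the sterol ring, was the fifth (log2 -0.83 ± 0.20), a call that ended without any 1 of control replicates 1, 3, 4 and 5 and DE-71 replicates 1, 4 and 5 (adjusted p = 0.0114 to 0.034). The call of Lss also ended with the spike covariate, with the Gapdh covariate, in the fit of the female arrays alone, in the fit of the 20 pup arrays, without the 2 least-like arrays and with the replicate block (adjusted p = 0.0106 to 0.0712), and its other probe set gave -0.57 (adjusted p = 0.0522).

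Fatty acid genes mostly did not pass: 2 of 25 rose and 1 fell, the fall being that of the desaturase Fads2 (-0.96 ± 0.19, adjusted p = 0.00106). Dgat1, which completes triglycerides, rose by 0.46 ± 0.072. Of 25 measured PPARalpha and oxidation genes 2 rose and 0 fell, and neither the P450 marker of that receptor, Cyp4a1 (0.32), nor the carnitine transferase Cpt1a (-0.24) passed. One was the pantetheinase Vnn1 (1.08 ± 0.19). The other was Acot1, a cytosolic thioesterase, with 3.54, 3.55, 3.46, 3.32 and 3.28 in controls and 6.65, 6.93, 4.44, 4.14 and 7.29 with DE-71. Treated replicates 3 and 4 were about 1 unit above the controls and replicates 1, 2 and 5 over 3 units above them. The call for Acot1 (log2 change 2.46 ± 0.43, adjusted p = 0.000316) ended in the fit of the female arrays alone (adjusted p = 0.0123) and with the spike covariate (adjusted p = 0.0231). In glucose metabolism 0 rose and 3 fell of 18: the gluconeogenic Fbp1 (-0.68 ± 0.09), the fructokinase Khk (-0.49 ± 0.091) and the coactivator Ppargc1a (-0.59 ± 0.12). Khk's call ended in the fit of the female arrays alone (adjusted p = 0.012) and that of Ppargc1a with the spike covariate (adjusted p = 0.0147). Other probe sets of Ppargc1a gave -0.80 and -0.63 (adjusted p = 0.0144 and 0.0123). Pck1, which starts gluconeogenesis, was at -0.84 and did not pass (adjusted p = 0.104).

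Genes of amino acid breakdown and the urea cycle fell, with 0 higher and 12 lower of 31 measured, a median of -0.46 and 30 of 31 changes below 0. Leaving out any 1 female array left 10 to 15 members lower, and over all the alternatives the count ran from 8 to 15. Hal, which deaminates histidine, read 10.41, 10.31, 10.12, 9.70 and 10.29 in controls and 8.74, 8.38, 8.36, 9.08 and 8.35 with DE-71, apart by over 0.6 units at the nearest (log2 change -1.58 ± 0.18, adjusted p = 6.93e-07). Agxt, which removes glyoxylate, read 11.59, 11.47, 11.55, 11.42 and 11.41 in controls and 10.34, 10.49, 10.17, 10.23 and 10.27 with DE-71, with little spread in either group (log2 change -1.19 ± 0.14, adjusted p = 9.91e-07). Gls2, liver glutaminase, fell 2.32-fold, the methyl acceptor enzyme Gnmt 2.3-fold, argininosuccinate synthase Ass1 2.02-fold and its partner lyase Asl 1.54-fold (adjusted p = 5.13e-05, 3.32e-05, 0.000237 and 5.02e-05). Prodh2, which opens hydroxyproline breakdown, fell 1.7-fold. The serine dehydratase Sds showed a still larger value, -1.74, but with controls from 7.28 to 9.70 it did not pass (adjusted p = 0.0185).

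Several of these genes also mark zones of the lobule, the unit in which blood runs from portal to central veins. Of 20 measured zone markers 1 rose and 7 fell (median -0.62). The falls included genes of the portal side, among them Hal, Gls2, Ass1 and Fbp1. They also included central ones, Glul, which makes glutamine (-0.61 ± 0.12), and the Wnt co-receptor Lgr5 (-0.82 ± 0.17). Cyp1a2, a central gene, was the 1 that rose. Glul's call ended with the spike covariate (adjusted p = 0.027) and without the 2 least-like arrays (adjusted p = 0.023). Lgr5's ended without the same 2 arrays (adjusted p = 0.0139) and in the fit of the female arrays alone (adjusted p = 0.0107). Cyp2e1, a further central gene, was at -0.29 and did not pass.

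Among 27 other solute carriers 0 rose and 8 fell, a count that was 5 with the spike covariate. Slc6a6, the taurine transporter, had the largest decrease among the called genes: 9.71, 10.91, 10.80, 9.97 and 10.28 in controls and 7.26, 7.65, 7.27, 7.80 and 7.50 with DE-71. The groups were almost 2 log2 units apart at the nearest, a 7.15-fold fall (log2 change -2.84 ± 0.28, adjusted p = 6.74e-08). A second probe set of the gene gave -3.17. The related Slc6a13, for GABA and taurine, fell by 1.06 on the log2 scale, the dicarboxylate carrier Slc13a3 by 1.27, the lactate carrier Slc16a1 by 0.76 and the amino acid carrier Slc38a4 by 0.70 (adjusted p = 0.000483, 3.39e-05, 0.000315 and 1.32e-05). The change of Slc6a13 was -0.68 with the Gapdh covariate. Another probe set of Slc16a1 gave 0.096 and was not called (adjusted p = 0.702).

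Of 17 measured fetal and imprinted genes 1 rose and 3 fell. H19, an imprinted RNA that liver shuts down after birth, read 12.02, 12.04, 12.29, 11.89 and 11.71 in controls and 10.39, 9.38, 9.61, 9.37 and 8.48 with DE-71. Treated replicate 1 was the highest and replicate 5 the lowest, all below the controls (log2 change -2.54 ± 0.23, adjusted p = 9.32e-09). Igf2, its neighbour (0.23), and Afp, alpha-fetoprotein (-0.91), did not pass. The cell cycle inhibitor Cdkn1c was at -0.62 ± 0.13, with its call ending in the fit of the female arrays alone (adjusted p = 0.0317) and with the spike covariate (adjusted p = 0.0351). The binding protein Igfbp2 was at -1.33 ± 0.31, a call that ended without any 1 of control replicates 1, 2 and 3 and DE-71 replicates 2, 4 and 5 (adjusted p = 0.0159 to 0.0286). The Igfbp2 call also ended with the spike covariate, with the Gapdh covariate, in the fit of the female arrays alone, in the fit of the 20 pup arrays, without the 2 least-like arrays, with a variance trend and robust fit and with the replicate block (adjusted p = 0.0111 to 0.108). Meg3 was the 1 that rose (0.89 ± 0.21), a call that ended without any 1 of control replicates 1, 2 and 4 and DE-71 replicates 1, 2 and 3 (adjusted p = 0.011 to 0.0202). Meg3's call was lost too with the Gapdh covariate, in the fit of the 20 pup arrays and without the 2 least-like arrays (adjusted p = 0.0146 to 0.0321), and another probe set gave 1.60 (adjusted p = 0.0101). In the growth hormone and IGF list 0 rose and 2 fell of 21, Igfbp2 and Igfals, which holds IGF in blood (-0.62 ± 0.13, adjusted p = 0.00149). The hormone's receptor Ghr (0.44), Igf1 (-0.033) and Socs2 (0.088) did not pass. Of genes that adult rat liver expresses by sex, 2 of 13 male-biased genes rose and 0 fell, and of 12 female-biased genes 2 rose and 2 fell. The male-biased Cyp2c11 was at 1.29 ± 0.32 (adjusted p = 0.00942). Its call ended without any 1 of control replicates 1, 2 and 3 and DE-71 replicates 2, 3, 4 and 5 (adjusted p = 0.0128 to 0.0393). Further, that call ended with the spike covariate, with the Gapdh covariate, in the fit of the female arrays alone, in the fit of the 20 pup arrays, without the 2 least-like arrays, with a variance trend and robust fit and with the replicate block (adjusted p = 0.0107 to 0.194).

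Acute phase genes had a median of -0.25, with 0 higher and 3 lower of 23. Their mean level was 13.59 in control replicate 4, 12.58 to 12.73 in the other controls and 12.27 to 12.48 with DE-71. Without control replicate 4 the median was -0.15 with 1 higher and 3 lower. It was -0.15 with the Gapdh covariate, -0.16 with the spike covariate and -0.12 without the 2 least-like arrays, and 5 members were lower with the filter on low values. The mean level of 6 neutrophil markers was 7.28 in control replicate 4, 4.82 to 5.50 in the other controls and 5.08 to 5.39 with DE-71, and their part in the result was not tested. A2m, the protease inhibitor alpha-2-macroglobulin, which immature rat liver makes, read 10.74, 10.63, 11.29, 13.94 and 11.15 in controls and 8.21, 9.02, 9.10, 9.39 and 7.88 with DE-71. Control replicate 4 stood over 2.5 units above the other controls, and all treated pups lay below all controls (log2 change -2.83 ± 0.41, adjusted p = 2.7e-05). Fgl1, a secreted fibrinogen-like protein, had the same control replicate highest: 12.36, 12.25, 12.56, 14.29 and 11.96 in controls and 11.71, 9.06, 10.46, 11.75 and 9.23 with DE-71, where replicates 2 and 5 were low (log2 change -2.24 ± 0.40, adjusted p = 0.000442). That call ended in the fit of the female arrays alone (adjusted p = 0.0276) and with the spike covariate (adjusted p = 0.0329). Itih3 fell by 0.40 on the log2 scale (adjusted p = 1.27e-05). Serum markers of inflammation such as Hp (-0.15), Crp (0.59) and Lcn2 (-0.53) did not pass.

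Of 27 measured interferon response genes and chemokines 6 were higher and 0 lower (median 0.36). Cxcl9, a chemokine that draws T cells, read 6.04, 6.03, 6.05, 5.83 and 5.26 in controls and 10.04, 9.13, 8.89, 7.68 and 8.85 with DE-71. Treated replicate 1 was highest and replicate 4 lowest (log2 change 3.08 ± 0.34, adjusted p = 4.81e-07). Cxcl10, which binds the same receptor, rose by 1.16 ± 0.22. The antiviral Oas1a rose by 1.53 ± 0.29, and its call ended with the spike covariate (adjusted p = 0.0209). With that covariate 2 members remained called, and 3 without the 2 least-like arrays. The other calls were Ifi27, Ifi44 and Rsad2. That of Ifi27 held without any single female array. The call of Ifi44 ended in 6 of the 10 fits that left out 1 female array (limma, adjusted p = 0.0103 to 0.0216). For Rsad2 this was so in 7 of 10 (limma, adjusted p = 0.0104 to 0.0251). Among the members that did not pass were Irf1 (-0.32), Irf7 (0.61), Isg15 (0.97) and Ifit1 (-0.074). Of 11 measured lymphocyte markers 0 were called (limma, FDR 0.01). Their mean level ran from 5.09 to 5.31 in controls and from 5.11 to 5.50 with DE-71. Their part in the result was not tested.

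Complement and coagulation genes gave 2 higher and 4 lower of 27 measured. Pros1, protein S, which restrains clotting, rose by 0.62 ± 0.076, and its call held under every alternative. The count of lower members was 2 without control replicate 4 or DE-71 replicate 4, 1 without DE-71 replicate 5, without the 2 least-like arrays, with the Gapdh covariate or in the female arrays alone, and 0 with the spike covariate. Serpind1, heparin cofactor, was at -0.39 ± 0.065, with its call ending with the spike covariate (adjusted p = 0.0125). Clotting factor F10 was at -0.35 ± 0.075, and its call ended without any 1 of control replicate 4 and DE-71 replicate 5 (adjusted p = 0.0112 to 0.0114) and with the spike covariate, with the Gapdh covariate, in the fit of the female arrays alone and without the 2 least-like arrays (adjusted p = 0.0214 to 0.0536).

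In haem and iron metabolism 2 of 17 measured genes rose and 2 fell. Fech, which puts iron into haem, read 10.32, 10.30, 10.52, 10.28 and 10.40 in controls and 10.98, 10.80, 10.85, 11.09 and 10.98 with DE-71 (log2 change 0.58 ± 0.088, adjusted p = 5.35e-05). Blvrb, which reduces biliverdin, rose by 0.70 ± 0.083, and the ferrireductase Steap3 read 8.20, 8.49, 8.45, 7.62 and 8.35 in controls and 7.23, 7.33, 6.98, 7.40 and 7.36 with DE-71 (log2 change -0.96 ± 0.16, adjusted p = 0.000176). The count of lower members was 1 without control replicate 2, 3 or 5 or DE-71 replicate 2, 4 or 5, without the 2 least-like arrays and with either covariate. The rate-limiting Alas1 of hepatocytes was at 0.47 and did not pass. Of 25 genes of amino acid starvation and endoplasmic reticulum stress 1 rose, Xbp1, a regulator of the secretory pathway (0.76 ± 0.14). Atf4 (0.23), Ddit3 (0.26) and Asns (1.07), which such stress induces, did not pass.

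In the proteasome, the complex that degrades tagged proteins, all 30 measured subunits were above 0, 15 were called higher and 0 lower, and the median was 0.31. The changes were small: Psmd2, a subunit of the regulatory cap, read 10.65, 10.69, 10.57, 10.53 and 10.69 in controls and 11.20, 10.97, 11.21, 10.96 and 11.13 with DE-71 (log2 change 0.47 ± 0.066, adjusted p = 1.96e-05). Psmd14, which removes ubiquitin, was at 0.47 ± 0.086 and the catalytic Psmb7 at 0.56 ± 0.11. Other probe sets of Psmd14 gave 0.37 and 0.12 and were not called. The count was 8 without control replicate 4, 7 in the fit of the female arrays alone, 2 with the spike covariate and 3 without the 2 least-like arrays. Psmb7's call ended with the spike covariate (adjusted p = 0.0472) and in the last of these settings (adjusted p = 0.0185). Oxidative phosphorylation subunits are given as another large set of complexes, with 0 higher and 1 lower of 37 (0 to 2 over the alternatives) and a median of -0.14. Of 43 genes for protein entry into the secretory pathway 6 were higher, a count that was 3 without control replicate 2, 2 without DE-71 replicate 5, without the 2 least-like arrays or with the Gapdh covariate, and 1 with the spike covariate. Sar1b, which forms transport vesicles, held its call under every alternative (0.48 ± 0.069).

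Of 39 cell cycle genes 6 were higher and 0 lower, with a median of 0.41 and 36 of 39 changes above 0. Kif11, a spindle motor, was at 0.72 ± 0.15 and the mitotic kinase Aurka at 0.72 ± 0.13. Both calls held without any single female array, but that of Kif11 ended with the Gapdh covariate (adjusted p = 0.0118) and that of Aurka with the spike covariate (adjusted p = 0.0125). The count was 3 without control replicate 2, control replicate 5, DE-71 replicate 4 or DE-71 replicate 5, 3 with the Gapdh covariate and in the female arrays alone, 2 with the spike covariate and 11 without DE-71 replicate 1. Another probe set of Kif11 gave 0.33 and was not called. Mki67 (0.75), Ccna2 (0.92) and Cdk1 (0.87) did not pass, and the G1 cyclin Ccnd1 stood at -1.06 (adjusted p = 0.0213). Chek1, the checkpoint kinase, is outside that list but among the 20 largest increases, with 5.67, 5.45, 5.91, 6.03 and 5.78 in controls and 8.14, 7.52, 7.25, 7.27 and 8.43 with DE-71 (log2 change 1.95 ± 0.19, adjusted p = 3.22e-08). Of 15 measured p53 targets and Gadd45 genes 2 rose and 1 fell. The increases were those of Gadd45b and Mdm2, which restrains p53 (0.97 ± 0.12). Of the further probe sets of Mdm2, 1 gave 0.81 and was called (limma, adjusted p = 2.23e-06), and 1 gave -0.063 and did not pass. Sesn1, a stress-inducible sestrin, was the 1 that fell (-0.58 ± 0.14), a call that ended without any 1 of control replicates 1, 2, 3 and 5 and DE-71 replicates 1, 3, 4 and 5 (adjusted p = 0.01 to 0.0349). Sesn1 also lost its call with the spike covariate, in the fit of the female arrays alone, without the 2 least-like arrays and with the replicate block (adjusted p = 0.0117 to 0.0748), and another of its probe sets gave -0.20 and was not called. Cdkn1a (-0.43), the p53 target that stops the cycle, did not pass. In the circadian list 0 of 19 genes passed and among immediate early genes 0 of 21 (limma). The largest values there, Dbp at 1.39 and Egr1 at -1.06, had adjusted p-values of 0.119 and 0.117.

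The remaining large increases were in genes outside these lists. Cltrn, collectrin, a partner of amino acid transporters, read 4.08, 3.90, 4.20, 3.66 and 4.58 in controls and 9.01, 9.43, 7.81, 9.14 and 9.75 with DE-71. The controls were all below the array median, and the treated pups all well above it, with replicate 3 lowest (log2 change 4.94 ± 0.27, adjusted p = 2.43e-13). Rup2, a urinary protein gene, read 3.96, 4.43, 8.12, 7.82 and 7.84 in controls and 12.04, 11.55, 9.94, 12.32 and 12.75 with DE-71. Control replicates 1 and 2 were near the bottom of the scale and the other 3 near 8, while all treated pups were higher (log2 change 5.28 ± 0.79, adjusted p = 3.72e-05). Probe sets of Rup2 differed in size, from 0.80, which did not pass, to 4.48. Snx10, a sorting nexin of endosomes, read 4.74, 4.96, 4.76, 6.22 and 6.35 in controls and 8.91, 8.52, 9.09, 8.75 and 9.0 with DE-71 (log2 change 3.45 ± 0.30, adjusted p = 4.59e-09), with control replicates 4 and 5 above the other controls. Zdhhc2, which attaches palmitate to proteins, rose 7.83-fold and varied little in either group (log2 change 2.97 ± 0.15, adjusted p = 8.4e-14). Ttc39a rose 14.9-fold, Egln3, an oxygen-sensing prolyl hydroxylase, 4.89-fold, and lipoprotein lipase Lpl 4.71-fold (adjusted p = 2.53e-13, 8.65e-10 and 2.83e-05). The sialyltransferase St6galnac2 rose 7.12-fold (adjusted p = 2.8e-05), while its other probe set gave 9.55e-05 on the log2 scale. Scn4b, a sodium channel subunit, read 6.74, 5.02, 7.57, 4.35 and 7.10 with DE-71 against 3.61 to 4.02 in controls, with replicates 2 and 4 lowest (log2 change 2.35 ± 0.43, adjusted p = 0.00052). Its call ended in the fit of the female arrays alone (adjusted p = 0.0115).

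**Figure D3:**
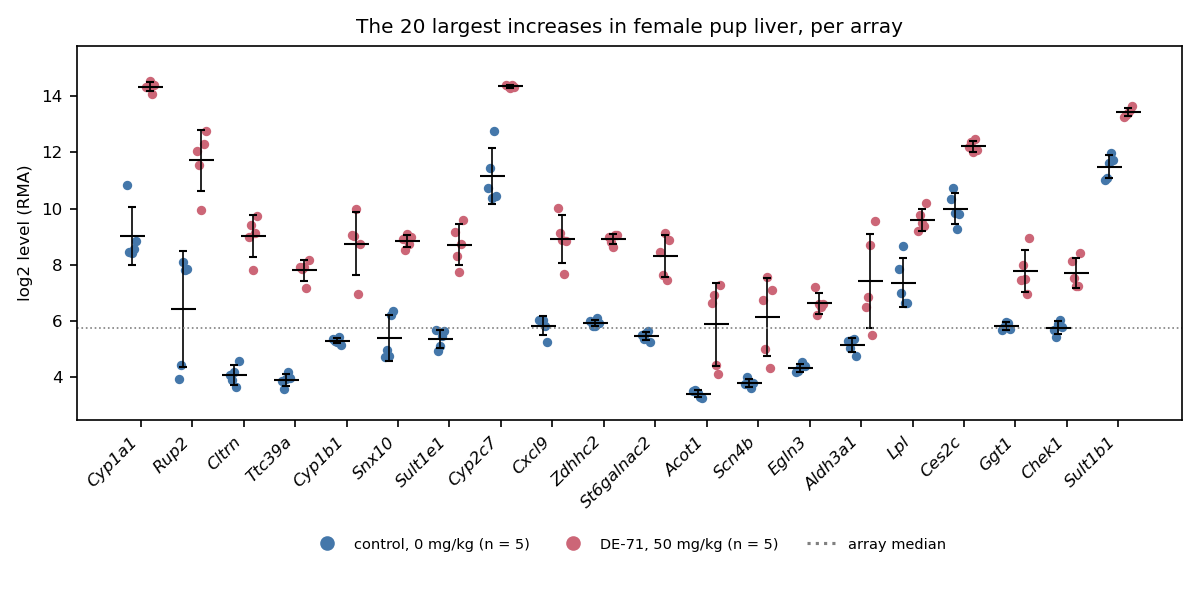
The 20 largest increases among called genes whose groups did not overlap: log2 RMA level in each control (blue) and DE-71 (red) female pup, with mean and SD (n = 5); the dotted line is the array median, 5.75. Cyp1a1 and Cyp2c7 reach over 14 in every treated pup, and Acot1, Scn4b and Aldh3a1 show the widest spread among treated pups.

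The largest decreases outside the lists were in genes of signalling, matrix and secretion. Ppp2r2b, a regulatory subunit of phosphatase 2A, read 8.30, 8.88, 8.12, 8.10 and 8.01 in controls and 5.51, 5.90, 5.33, 5.72 and 5.63 with DE-71 (log2 change -2.66 ± 0.31, adjusted p = 1.07e-06), tight in both groups. Edil3, a matrix ligand of integrins, fell 4.71-fold, with treated replicates 1 and 3 near 4 and replicates 2 and 4 near 6 (adjusted p = 8.07e-05). Qsox1, which forms disulfide bonds in secreted proteins, fell 3.87-fold (log2 change -1.95 ± 0.18, adjusted p = 2.04e-08). Rprm, a G2 arrest gene, and the lipid phosphatase gene Mtmr7 fell 3.99-fold and 4.1-fold to means under the array median. Pbsn, probasin, an androgen-responsive secreted protein, read 6.64, 5.80, 4.14, 5.67 and 4.94 in controls and 3.58, 3.66, 3.67, 3.57 and 3.62 with DE-71. Every treated pup was at the bottom of the scale, so the fall (log2 change -1.82 ± 0.26, adjusted p = 1.88e-05) is read against a floor. Of the 95 genes that rose at least 2-fold 25 had control means below the array median, and of the 55 that fell as much 12 had DE-71 means below it.

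**Figure D4:**
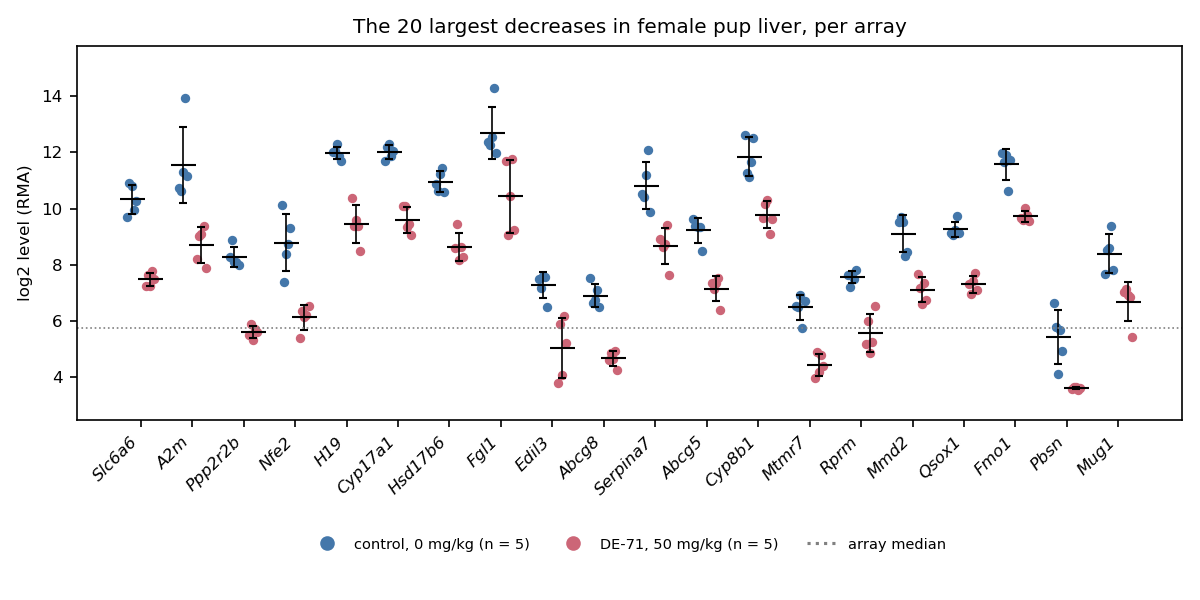
The 20 largest decreases among called genes whose groups did not overlap, drawn as for the increases. Slc6a6 falls from about 10 to under 8 in every treated pup, and control replicate 4 gives the highest points of A2m and Fgl1.

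Few markers of other cell types were called. Kupffer cell and macrophage markers had 0 called of 12 (median log2 change -0.15), and neutrophil markers 0 of 6 (-0.31), by limma at FDR 0.01. Control replicate 4 stood apart in both, with the neutrophil values given above and a Kupffer mean level of 9.78 against 8.63 to 9.23 in the other controls and 8.68 to 9.10 with DE-71. Without it the medians were -0.0033 for the Kupffer list and 0.018 for the neutrophil list. They were 0.050 and 0.027 without the 2 least-like arrays, -0.021 and 0.021 with the spike covariate, -0.012 and -0.14 with the Gapdh covariate, and -0.28 and -0.50 without control replicate 2. The filter on low values, which left 3 neutrophil markers, gave -0.59, and 1 Kupffer marker was lower without control replicate 5. Exocrine pancreas had 0 of 8 called and adipose tissue 0 of 7. Endothelial markers had 1 of 11 lower, Fcgr2b, an IgG receptor of the sinusoids (-0.63 ± 0.12), whose call ended with the spike covariate (adjusted p = 0.0205) and without the 2 least-like arrays (adjusted p = 0.0102). Stellate markers had 2 of 15 lower: the retinol esterifier Lrat (-0.77 ± 0.16), whose call ended without the same 2 arrays (adjusted p = 0.0191), and the growth factor receptor Pdgfrb (-0.44 ± 0.11), whose call ended without any 1 of control replicates 1, 2, 4 and 5 and DE-71 replicates 1, 3 and 5 (adjusted p = 0.0105 to 0.0299). Pdgfrb's also ended with the spike covariate, with the Gapdh covariate, in the fit of the 20 pup arrays and without the 2 least-like arrays (adjusted p = 0.0174 to 0.0755), and other probe sets gave -0.024 and -0.21 without passing. The cholangiocyte list had 1 of 6 higher, Epcam (0.92 ± 0.18), whose call ended with the Gapdh covariate (adjusted p = 0.0116) and with the spike covariate (adjusted p = 0.0199). Erythroid markers had 1 of 11 lower, Nfe2, a subunit of an erythroid transcription factor. It read 10.12, 7.40, 8.40, 8.76 and 9.31 in controls and 5.40, 6.37, 6.16, 6.21 and 6.53 with DE-71 (log2 change -2.66 ± 0.41, adjusted p = 6.29e-05), with no overlap, while the erythroid haem enzyme Alas2 was at 0.78 and did not pass. Of 11 hepatocyte markers 1 rose and 1 fell. The apolipoprotein Apoa2 rose, with 11.82, 12.07, 11.96, 12.87 and 11.66 in controls and 14.09, 14.04, 13.83, 13.98 and 14.05 with DE-71 (log2 change 1.92 ± 0.16, adjusted p = 1.29e-09). Cps1, which starts the urea cycle, was at -0.31 ± 0.072, a call that ended without any 1 of control replicates 2, 3, 4 and 5 and DE-71 replicates 1, 3 and 4 (adjusted p = 0.0134 to 0.027). The Cps1 call also ended with the spike covariate, with the Gapdh covariate, in the fit of the female arrays alone and without the 2 least-like arrays (adjusted p = 0.0126 to 0.0366), while a second probe set gave -1.08 and was called too (adjusted p = 0.00307).

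The 5 treated pups differed in the size of their values. Among the 20 largest increases, replicate 5 gave the highest value of the 5 in 11 genes and the lowest in 0. Replicate 4 gave the lowest in 9 genes, Cyp1a1, Cyp1b1, Aldh3a1 and Cxcl9 among them, and the highest in 1. Replicate 3 gave the lowest in 7 and the highest in 5. Among the 20 largest decreases, replicate 5 was the lowest in 8 genes and replicate 4 the highest in 8. Of the controls, replicate 4 was the highest of the 5 in 9 of the 20 increases and in 6 of the 20 decreases. These replicate numbers name pups and do not order them.

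Male pups gave a separate set of treated and control livers, both in 1 array batch. Their control measures also had unlike means within that batch. Hybridisation spikes read 11.40 ± 0.09 (SD, n = 5) in male controls and 11.64 ± 0.31 with DE-71. The 3' minus 5' signal of Gapdh was 1.61 ± 0.33 in male controls and 2.09 ± 0.65 with DE-71. The part of these differences in the changes that the sexes shared was not tested. Of the 872 genes called in females, 869 had a change of the same sign in males, and 556 were called there too. Those 556 are 63.8% of the female calls and 52.3% of the 1064 male calls (7.48% of genes), and 0 genes were called in opposite directions. The 3 with opposite signs were Maob, Cpne8 and Josd2, chosen here for that after their values were seen. Their male changes were 0.012, 0.023 and -0.030. All of the 95 genes that rose at least 2-fold and all of the 55 that fell as much had the same sign in males, and 78 and 38 of them were called there. Over the called genes the ratio of male to female change had a median of 0.871 (quartiles 0.685 and 1.07), and choosing the genes by their female values lowers such a ratio. Across all 14217 genes Pearson's r between the female and male changes was 0.789, given as a description because genes are not independent replicates.

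The test of the difference itself, sex by dose, called 0 probe sets at FDR 0.01 and 0 at 0.05 (limma), with 1576 (5.08%) at an unadjusted p under 0.05 and a smallest adjusted p of 0.120. Batch coincides with this contrast too, so a difference between the sexes and one between the batches cannot be told apart. The differences with the smallest adjusted p were in genes not called in females, named after their values were seen. Cyp2c13 was at 0.72 in females and 4.40 in males (adjusted p = 0.120 for the difference). Mthfd2, a mitochondrial folate enzyme, was at 0.27 and -0.86 (adjusted p = 0.120 for the difference), and Ifrd1 at -0.47 and -1.77 (adjusted p = 0.164 for the difference). The other genes given here side by side were picked among those called in females, after their values were seen. Slc6a6 was at -2.84 ± 0.28 in females and -0.94 ± 0.28 in males (adjusted p = 0.353 for the difference). Pbsn was at -1.82 ± 0.26 and -0.36 ± 0.26 (adjusted p = 0.717 for the difference), and Hsd17b6 at -2.32 ± 0.34 and -0.67 ± 0.34 (adjusted p = 0.757 for the difference). H19 was at -2.54 ± 0.23 and -3.74 ± 0.23 (adjusted p = 0.717 for the difference). On the side of larger male increases, Sult1e1 was at 3.34 ± 0.35 and 5.13 ± 0.35 (adjusted p = 0.741 for the difference), Cyp2c7 at 3.20 ± 0.29 and 4.57 ± 0.29 (adjusted p = 0.761 for the difference) and Cyp2a3 at 2.77 ± 0.50 and 5.23 ± 0.50 (adjusted p = 0.757 for the difference). Cyp1a1, given as the largest increase, was at 5.31 ± 0.44 and 4.74 ± 0.44 (adjusted p = 0.98 for the difference). Of the 872 called genes 81 moved by less than 0.2 in males. Among the 10 of these with the largest female change, the calls of 4 held without any single female array. Besides Lrat these were Fam171a1 (0.92 in females, 0.094 in males), Pcdh18, a protocadherin (-0.75 and -0.11), and Zfp775, a zinc finger gene (0.71 and 0.044). None passed the sex-by-dose test (limma, adjusted p = 0.887 for Lrat, 0.761 for Fam171a1, 0.828 for Pcdh18 and 0.741 for Zfp775). For Zfp775 the control means were 5.06 in females and 5.74 in males, and the DE-71 means 5.76 and 5.78. The calls of Fam171a1, Pcdh18 and Zfp775 ended with the spike covariate (adjusted p = 0.0323, 0.0262 and 0.0591). Another probe set of Fam171a1 gave 0.16 in females and was not called. That of Pcdh18 also ended with the Gapdh covariate (adjusted p = 0.0167) and in the fit of the female arrays alone (adjusted p = 0.0289).

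**Figure D5:**
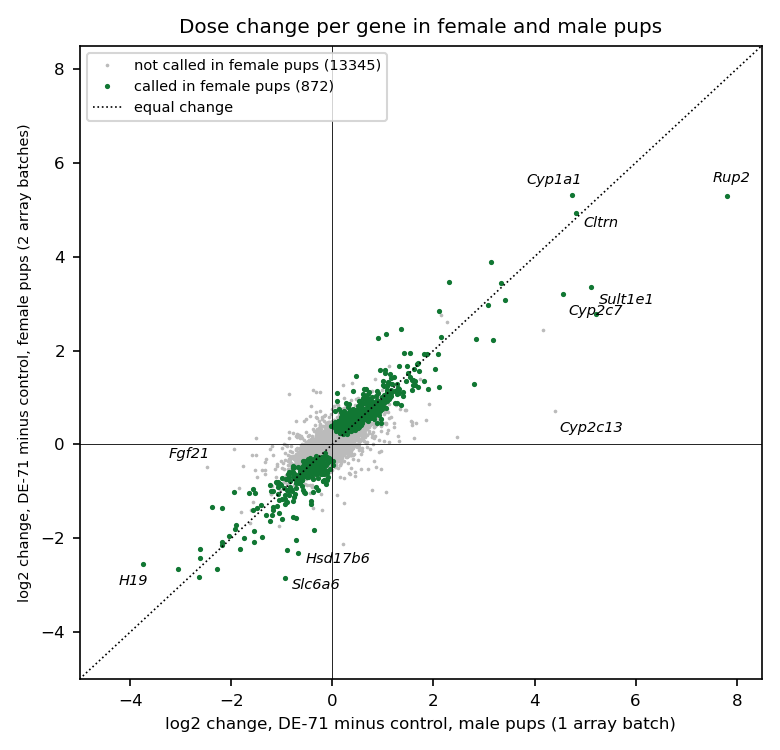
Log2 change with DE-71 in female pups (vertical) against male pups (horizontal) for 14217 genes, with the 872 genes called in females in green and equal change as a dotted line. Called genes follow the line, with Slc6a6 and Hsd17b6 below it and Rup2, Sult1e1 and Cyp2c7 to its right.

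In adult males, whose arrays lay in the second batch, 555 genes were called at FDR 0.05 (3.9%). Of the female pup calls 708 had the same sign there, 153 were called in the same direction and 5 in the opposite one, and 126 genes were called the same way in female pups, male pups and adults. Sex, age and length of dosing all differ between these groups, and no test of the difference was made. The adult changes of Cyp1a1, Snx10, Ces2c, Aldh1a1, Por and Me1 were 6.56, 3.27, 2.09, 1.54, 1.15 and 1.38, beside female pup changes of 5.31, 3.45, 2.22, 1.52, 1.31 and 1.68. Those of Cltrn, Cyp2c7, Sult1e1, Cyp1b1 and H19 were -0.092, 0.17, -0.28, 0.019 and 0.23, beside 4.94, 3.20, 3.34, 3.45 and -2.54 in female pups. The 5 genes of opposite direction, named after their values were seen, were Sat1, which breaks down polyamines, Ccdc117, Znf750, Zfp395 and Stambpl1. Sat1 was at 0.82 in female pups and -0.50 in adults, and Znf750 at -0.98 and 1.04.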

How the data were processed

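Livers of 30 rats were measured on 1 array each. Per the submitters' processing notes the authors deposited log2 values made with RMA, which corrects background, normalizes quantiles across arrays and summarises probes. Which software ran RMA, and its version, is not given in the sources used here. Depth has no meaning for arrays, and their number, 5 a group, limits the precision.

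After 57 control probe sets were left out, 31042 were fitted over all 6 groups with limma 3.58.1 in R 4.3.3 (lmFit, eBayes), with contrasts within females, within males, within adults and for sex by dose. P-values were adjusted by Benjamini-Hochberg over all probe sets, and called means an adjusted p under 0.01 in pups and under 0.05 in adults. The fit was checked on simulated data. Names come from GEO's platform annotation, updated through RefSeq: 20826 probe sets name 1 gene, 436 several and 9780 none. Each of 14217 genes is read from the probe set with the highest mean over the 30 arrays. Nothing beyond a separate dam is stated of the pups. The spread behind each limma p-value and standard error is that between livers within groups, pooled over all 6 groups with 24 residual degrees of freedom. It is not the spread of the female pups alone. In the fit of the 10 female arrays alone 968 probe sets were called, 831 of them shared with the main fit.

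The rule for named genes took a set of index genes, the 20 largest called changes of each direction whose groups do not overlap, members of the gene lists with values, calls with little male change, cell type markers and genes that check the labels. The members and lists were chosen with earlier results of these data known. Replicate numbers did not pair the samples (correlation of same-numbered deviations -0.083 to 0.0059). Alternatives were the samples in the fit, a replicate block, a variance trend, a filter on low values, renewed quantile normalization, covariates for the Gapdh and spike signals, other thresholds and leaving out arrays.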

Additional observations from a re-analysis of the deposited data

Results flagged for a closer look

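In 11 of 122 groups of 5 values (9.02%) the highest or lowest array lay far from its nearest neighbour for the group's range (Dixon's test). Chance flags about 1 in 20 groups where groups are independent. Most of these groups are genes chosen with their values known and measured on the same female arrays, so the share cannot be read as an excess. Control replicate 4 gave 6 of the 11 flags on the log2 scale. It was high for A2m at 13.94, Fgl1 at 14.29 and Qsox1 at 9.73, and low for Fmo1 at 10.64, Nqo1 at 10.89 and Ttr, the carrier transthyretin, at 14.76. Control replicate 5 was low for Abcg5 at 8.48 and for Cxcl9 at 5.26, and control replicate 1 was high for Cyp1a1 at 10.83. Of the treated pups, replicate 5 was low for Ahr at 5.56 and for Mug1, a plasma protease inhibitor, at 5.45. Mug1 was among the calls for lower level, at a log2 change of -1.72 ± 0.40 (limma, adjusted p = 0.00575), and that call ended without any 1 of control replicates 2, 3 and 4 and DE-71 replicates 4 and 5 (adjusted p = 0.0102 to 0.0319). It also ended with the spike covariate (adjusted p = 0.112), with the Gapdh covariate (log2 change -1.01, adjusted p = 0.0594), without the 2 least-like arrays (adjusted p = 0.102) and with a robust variance trend (adjusted p = 0.0124).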

How the results depend on the processing

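The reported fit called 1315 probe sets. With the hybridisation spikes as covariate 506 were called, 488 of them among the 1315, and 725 once control replicate 4 and DE-71 replicate 5 were dropped, 697 of them among the 1315. The count was 2565 at FDR 0.05 and 207 where a 2-fold change was required besides. Leaving out each female array gave 880 to 1192. With the replicate block, a check only since the numbers did not pair the samples, the count was 1266, of which 1189 were shared. No array in 10 was most like its own number. The sex-by-dose count was 0 to 1 when arrays were left out, with 1 without male DE-71 replicate 3 and 1 without male control replicate 2. Differences in control signals had ranges, over the leaving out of each female array, of 0.32 to 0.40 for the hybridisation spikes, 0.26 to 0.52 for the labelling spikes, 0.54 to 0.88 for Gapdh and 0.58 to 0.89 for Actb. Of 157 called genes followed, 82 kept their call under each alternative run, 75 lost it under at least 1 and 0 reversed. Values below the array median and near the top of the scale limit what the array resolves. Dose and batch cannot be told apart.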
